A study of Mus musculus with 12 samples.

Results

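Amot, Amotl1 and Amotl2, which encode the 3 angiomotins, were examined with Ptpn14 and Frmd6, which encode junctional proteins that also hold YAP in check. These 5 genes were chosen by name as inhibitors of the Yes-associated protein (YAP) that sit at cell junctions, out of 24480 genes in the deposited tables. The choice was made with earlier results of these data known. RNA was sequenced from undifferentiated mouse embryonic stem cells (ESCs) of the line E14Tg2a, all transiently transfected with a lipid reagent. For the knockdown, siRNAs that target Yap1 (YAP KD) were set against scrambled siRNAs (CTR KD). For the overexpression, a plasmid with mouse YAP under the CAG promoter (YAP OE) was set against a plasmid that the labels call GFP and the study's text an empty vector (CTR OE). Each of the 4 groups had 3 libraries, and the experiments shared no library.

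YAP is a transcriptional coactivator without a DNA-binding domain of its own, and it reaches its genes mainly through TEAD factors. The Hippo kinases LATS1 and LATS2 phosphorylate it and keep it in the cytoplasm. The angiomotins form a further brake: they are scaffolds of tight junctions and actin that bind the WW domains of YAP through PPxY motifs. PTPN14 is a tyrosine phosphatase with a FERM domain and PPxY motifs of its own, and FRMD6 is a FERM-domain protein related to Expanded of the fly. In the early mouse embryo, angiomotin at the junctions of inner cells keeps YAP out of the nucleus, and Amotl2 is known as a YAP target gene in other cell types.

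The libraries held 4.29e+07 to 5.72e+07 expected counts, with a biological coefficient of variation of 5.66% among knockdown libraries and 4.43% among overexpression libraries. Levels are given as CPM, counts scaled to a common library size. Summed over 7 ESC markers they lay between 4993 and 5497 in all libraries, with 5296 to 5497 in CTR KD and 4993 to 5320 in YAP KD. By group means Nanog, Zfp42, Esrrb and Dppa5a were lower in YAP KD than in CTR KD. Pou5f1, Sox2 and Klf4 were higher, and the sum was not tested. Trophoblast markers summed to 4.58 to 12.4 CPM, primitive endoderm markers to 3.27 to 4.79 and fibroblast markers to 0.570 to 1.77. Yap1 itself averaged 124.9 ± 9.16 CPM in CTR KD and 56.5 ± 1.72 in YAP KD, and 133.0 ± 1.96 in CTR OE and 259.8 ± 16.8 in YAP OE (SD, n = 3). Its libraries did not overlap between YAP and CTR in either experiment. Per the study's methods the plasmid carries the mouse YAP coding sequence. In YAP OE, reads of the plasmid and of the cells' own Yap1 gene therefore cannot be told apart in these counts.

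The promoters of Amotl2, Ptpn14 and Frmd6, which changed in both experiments, are shown first. These genes were picked for print by that response. TEAD factors recognise the sequence GGAATG, which reads as CATTCC on the opposite strand. The windows hold the 250 bases before the start of transcription in RefSeq (GRCm38.p6, the build of mm10), written 5′ to 3′ on the strand of the gene, with a match to either form in capitals. They lie at chr9:102717554-102717803 for Amotl2, at chr1:189728018-189728267 for Ptpn14 and at chr12:70825264-70825513 for Frmd6, all on the plus strand. RefSeq places the outermost boundary of each of these genes inside or upstream of the window, so other annotated starts exist.
Amotl2: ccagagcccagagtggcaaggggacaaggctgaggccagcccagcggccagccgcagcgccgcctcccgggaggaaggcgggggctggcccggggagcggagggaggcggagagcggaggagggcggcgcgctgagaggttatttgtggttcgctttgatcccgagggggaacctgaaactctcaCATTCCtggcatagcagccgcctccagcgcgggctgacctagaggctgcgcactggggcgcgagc
Ptpn14: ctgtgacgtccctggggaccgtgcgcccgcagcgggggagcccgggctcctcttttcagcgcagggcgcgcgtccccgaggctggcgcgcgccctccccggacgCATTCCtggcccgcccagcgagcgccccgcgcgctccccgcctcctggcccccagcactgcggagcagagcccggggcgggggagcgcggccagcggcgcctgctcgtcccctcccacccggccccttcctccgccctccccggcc
Frmd6: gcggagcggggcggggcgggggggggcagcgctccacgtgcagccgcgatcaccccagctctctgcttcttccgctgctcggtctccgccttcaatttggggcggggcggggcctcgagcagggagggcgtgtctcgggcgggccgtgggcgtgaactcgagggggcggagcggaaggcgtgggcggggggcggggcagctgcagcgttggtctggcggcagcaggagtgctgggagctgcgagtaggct
Amotl2 held 1 match, which began 65 bases before the start, and Ptpn14 held 1 match, which began 146 bases before it. The corresponding windows of Frmd6, Amotl1 and Amot held none. Those of Amotl1 (chr9:14615001-14615250) and Amot (chrX:145487640-145487889) are on the minus strand and lie inside the genes. The outermost boundaries upstream of them are at 14662974 and 145505966. Promoters at other annotated starts of the 5 members were not searched. All 5 members had a promoter in the RefSeq table, so 2 of 5 had a match, against 12.6% of 32851 promoter windows of the same length. A match is a stretch of letters, and binding was not measured in these files. The study measured YAP binding by ChIP-Seq in undifferentiated ESCs, and those data were not used here. Whether the sequence has a part in the responses of these genes was not tested.

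Amotl2, Ptpn14 and Frmd6 fell in YAP KD and rose in YAP OE, whereas Amotl1 and Amot passed the test in neither experiment. A gene was called where edgeR's quasi-likelihood test gave an adjusted p-value under 0.05 over all genes tested. In YAP KD 3 of 5 members were lower, against 2.78% of all genes tested, and none was higher, against 2.71%. In YAP OE 3 of 5 were higher, against 1.66% of all genes, and none was lower, against 0.473%. Lower in YAP KD and higher in YAP OE were 3 of 5 members, against 80 of 14521 genes tested in both (0.551%). The groups did not overlap for Amotl2, Ptpn14 and Frmd6 in either experiment, which held for 25.9% of all genes between YAP KD and CTR KD and for 18.1% between YAP OE and CTR OE. The median log2 fold change of the 5 members was -0.31 in YAP KD and 0.25 in YAP OE, beside 0.0058 and -0.0025 for all genes.

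**Figure D1:**
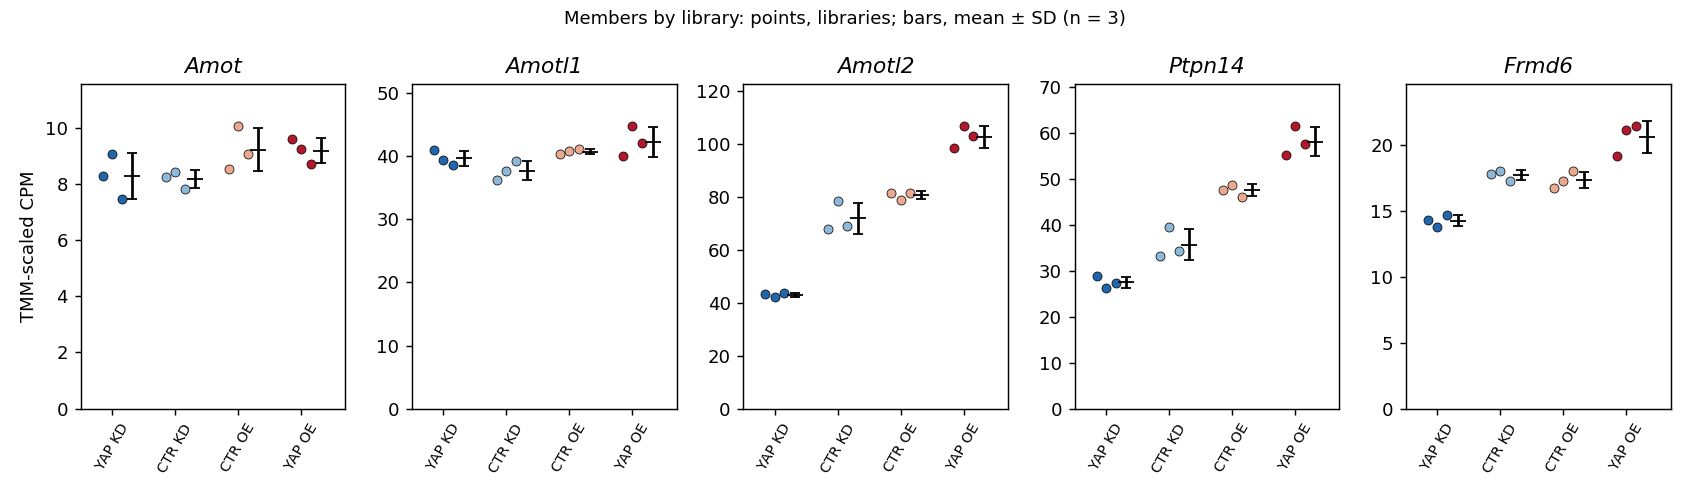
Expression of the 5 members in each library (vertical axis, TMM-scaled CPM starting at 0, a separate scale per gene) in the 4 groups. Points are libraries and bars give mean ± SD (n = 3). Amotl2, Ptpn14 and Frmd6 lie lower in YAP KD and higher in YAP OE than in the matching controls with no overlap, and Amotl1 and Amot overlap in both experiments.

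Among the angiomotins, Amotl2 carried the response. Amotl2, a coiled-coil scaffold that links cadherin junctions to actin, spans 102717091 to 102733418 of chromosome 9 (GRCm38.p6) and overlaps no other annotated gene. Its expression was 67.9, 78.5 and 69.0 CPM in the CTR KD libraries and 43.2, 42.0 and 43.6 in YAP KD. All knockdown libraries lay well below all controls, and the second control library was the highest. This is a log2 fold change of -0.74 (SE 0.0581, adjusted p = 0.000169, edgeR), which left 59.8% of the control level.

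After overexpression the same gene moved the other way. Amotl2 was at 81.4, 78.8 and 81.4 CPM in CTR OE and at 98.4, 106.6 and 102.7 in YAP OE. Every YAP OE library was above every control, and the controls differed little among themselves. It rose by 0.35 on the log2 scale (SE 0.0400, adjusted p = 0.000209), to 127.3% of control. Both calls on Amotl2 held when any single library was left out.

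Amotl1, the paralogue of Amotl2 at tight junctions, lies on chromosome 9 at 14541966 to 14662974 and overlaps the non-coding gene Gm34263. Amotl1 was at 36.3, 37.7 and 39.2 CPM in CTR KD and at 41.0, 39.5 and 38.6 in YAP KD. The lowest knockdown library lay below the highest control, so the groups overlapped. The log2 fold change was 0.073 (SE 0.0465, 95% interval -0.031 to 0.18, adjusted p = 0.445).
In the overexpression experiment Amotl1 was at 40.3, 40.8 and 41.2 CPM in CTR OE and at 40.1, 44.8 and 42.1 in YAP OE. The first YAP OE library was below all 3 controls and the other two were above them. YAP OE differed from CTR OE by 0.053 on the log2 scale (SE 0.0455, 95% interval -0.044 to 0.15, adjusted p = 0.693). Both intervals leave out changes as large as those fitted for Amotl2. Without single libraries the value for Amotl1 ranged from 0.039 to 0.10 in YAP KD and from 0.011 to 0.091 in YAP OE, on the log2 scale and never called.

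Amot, the founding member of the family, lies on chromosome X at 145446424 to 145505966. It was the lowest of the 5 in every library, with 351 to 494 expected counts. Amot was at 8.26, 8.43 and 7.83 CPM in CTR KD and at 8.29, 9.08 and 7.48 in YAP KD. The knockdown libraries held both the highest and the lowest of these values. The log2 fold change was 0.016 (SE 0.0824, 95% interval -0.17 to 0.20, adjusted p = 0.947).
In CTR OE Amot was at 8.55, 10.1 and 9.06 CPM and in YAP OE at 9.61, 9.25 and 8.71. The controls held both extremes here. For YAP OE the fitted log2 fold change was -0.0055 (SE 0.0747, 95% interval -0.16 to 0.15, adjusted p = 0.989). Its sign turned in each experiment on leaving out single libraries, so no direction is given for Amot.

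Amot is also the only member for which 2 transcripts were counted, and so the only one whose mean transcript length could vary. This length was 6865 ± 83.6 bases in CTR KD, 6815 ± 125.1 in YAP KD, 6779 ± 64.0 in CTR OE and 6905 ± 92.0 in YAP OE (SD, n = 3). The groups were within one another's spread in the knockdown. On the log2 scale of length the difference was -0.010 in YAP KD (SE 0.0171, limma adjusted p = 1) and 0.027 in YAP OE (SE 0.0128, adjusted p = 0.993). Of the genes with a variable length, 0.0719% were called for YAP KD and 0.0236% for YAP OE.

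Ptpn14 lies on chromosome 1 at 189728216 to 189876695, where RefSeq also places the non-coding genes Gm51739 and Gm26574 and the pseudogene Gm30280. None of them has a row of its own in the tables, and whether counting used strand was not stated. Ptpn14 was at 33.1, 39.6 and 34.4 CPM in CTR KD and at 28.8, 26.3 and 27.4 in YAP KD. The second control library was again the highest, and all knockdown libraries were below the controls. Ptpn14 fell by 0.38 on the log2 scale (SE 0.0692, adjusted p = 0.0134), to 76.9% of control. The call was lost without YAP KD replicate 2 (adjusted p = 0.0749) and without YAP KD replicate 3 (adjusted p = 0.0563).

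Ptpn14 was at 47.7, 48.7 and 46.1 CPM in CTR OE and at 55.2, 61.5 and 57.6 in YAP OE. All YAP OE libraries exceeded all controls. It rose by 0.29 on the log2 scale (SE 0.0452, adjusted p = 0.00246), to 122.2% of control, and it stayed past the threshold without any single library.

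Frmd6 spans 70825456 to 70902234 of chromosome 12 and overlaps no other annotated gene. It was at 17.8, 18.1 and 17.3 CPM in CTR KD and at 14.3, 13.8 and 14.7 in YAP KD. The 2 groups were separate, and each was tight. The log2 fold change was -0.31 (SE 0.0521, adjusted p = 0.00876), or 80.6% of control. Without YAP KD replicate 2 it missed the threshold (-0.29, adjusted p = 0.0573), and the count of members called in the knockdown then dropped from 3 to 1.

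In the overexpression experiment Frmd6 was at 16.8, 17.3 and 18.0 CPM in CTR OE and at 19.2, 21.1 and 21.4 in YAP OE. The lowest YAP OE library was still above the highest control. Frmd6 rose by 0.25 on the log2 scale (SE 0.0557, adjusted p = 0.0314), to 118.5% of control. It was the call most often lost when single libraries were left out, although it held in the 9 other settings. It was lost on leaving out any of 5 of the 6 libraries, namely each of CTR OE replicates 1, 2 and 3 and YAP OE replicates 2 and 3, with log2 fold changes of 0.21 to 0.27 and adjusted p between 0.0724 and 0.147.

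**Figure D2:**
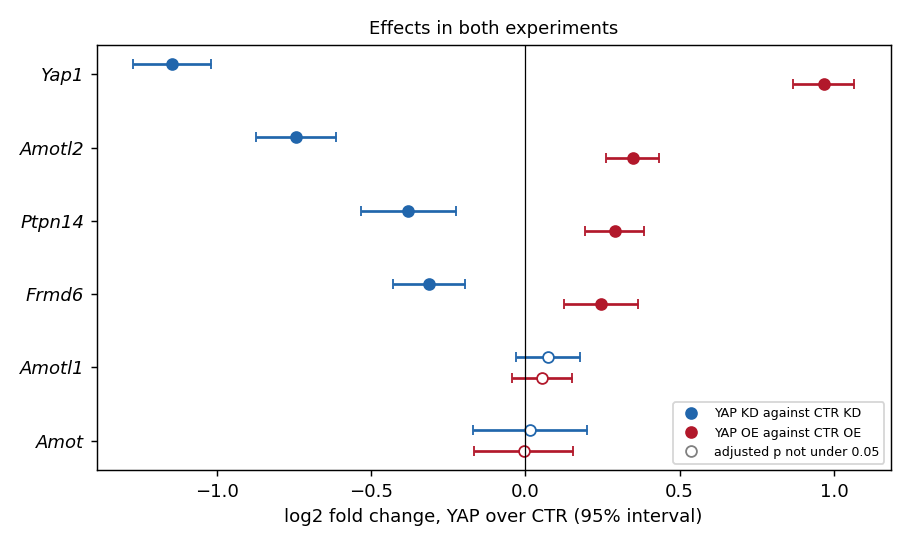
Log2 fold changes (horizontal axis) with 95% intervals for Yap1 and the 5 members, YAP KD against CTR KD in blue and YAP OE against CTR OE in red. Filled points passed the adjusted threshold of 0.05. Amotl2, Ptpn14 and Frmd6 have intervals on opposite sides of 0 in the experiments, and the intervals of Amotl1 and Amot include 0.

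Markers of other cells were read beside these changes. In the overexpression experiment trophoblast markers summed to 6.87 to 7.53 CPM in CTR OE and to 8.96 to 12.4 in YAP OE, so they were highest where Amotl2, Ptpn14 and Frmd6 were highest. By their means, 4 of the 5 markers were higher in YAP OE, among them Cdx2 at 0.631 against 0.149 CPM and Gata3 at 1.04 against 0.286, while Elf5 stayed near 0. In the knockdown they summed to 4.58 to 5.08 in CTR KD and to 5.24 to 5.87 in YAP KD. This sum moved in the opposite direction to the 3 members. Most of its rise lay in Krt7, with group means of 3.13 CPM in CTR KD and 4.01 in YAP KD. Gata3 was slightly higher in YAP KD (0.261 against 0.182) and Cdx2 was nearly unchanged. Eomes and Elf5 were lower in YAP KD, so the trophoblast markers did not rise as a set. Fibroblast markers were at 0.570 to 0.909 CPM in CTR KD and 1.19 to 1.77 in YAP KD. Their part in the result was not tested. In bulk RNA, fewer cells that express a gene and less RNA of it per cell cannot be told apart.

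Next, the experiments were compared with each other in 1 fit over all 12 libraries. The effect of YAP OE minus that of YAP KD was 1.09 for Amotl2 (SE 0.0724, adjusted p = 3.74e-07), 0.67 for Ptpn14 (SE 0.0876, adjusted p = 0.000208) and 0.56 for Frmd6 (SE 0.0748, adjusted p = 0.000252), all on the log2 scale. These 3 of 5 members were called, against 8.80% of all genes, and the 3 calls held without any single library. For Amotl1 the difference was -0.017 (SE 0.0656, adjusted p = 0.915) and for Amot it was -0.019 (SE 0.113, adjusted p = 0.949).

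The sum of both effects, which would be 0 for a gene that moved equally far in opposite directions, was called for 1 of 5 members, against 1.22% of all genes. For Amotl2 the sum was -0.40 (95% interval -0.55 to -0.24, adjusted p = 0.0109), so its fall in YAP KD exceeded its rise in YAP OE on the log2 scale. Ptpn14 had a sum of -0.092 (95% interval -0.28 to 0.095) and Frmd6 of -0.068 (95% interval -0.23 to 0.091), neither of them called (adjusted p = 0.798 and 0.837). Without single libraries these sums ranged from -0.14 to -0.0082 and from -0.11 to -0.020. The sum for Yap1 itself was -0.18 (95% interval -0.35 to -0.016, adjusted p = 0.380). Its counts in YAP OE can include reads from the plasmid, so this sum is not on the same measure as those of the members.

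The control groups were not alike for Ptpn14. Its level was 47.5 ± 1.32 CPM in CTR OE and 35.7 ± 3.41 in CTR KD (SD, n = 3), a log2 difference of 0.40 (SE 0.0615, adjusted p = 0.00329) that held without any single library. It was the only member called here, 1 of 5 against 1.33% of all genes. Amotl2 had a log2 difference of 0.15 (adjusted p = 0.205), which passed the threshold without CTR KD replicate 2 (0.23, adjusted p = 0.00983). Frmd6 was at -0.039 (adjusted p = 0.874), Amotl1 at 0.10 (adjusted p = 0.454) and Amot at 0.16 (adjusted p = 0.489). Without single libraries Frmd6 ranged from -0.063 to -0.011, Amotl1 from 0.071 to 0.13 and Amot from 0.10 to 0.22. The control groups differ in the nucleic acid delivered and in the experiment, and these cannot be told apart. Summed trophoblast markers were also lower in CTR KD than in CTR OE, at 4.58 to 5.08 against 6.87 to 7.53 CPM. By group means, Krt7 was at 3.13 in CTR KD against 5.39 in CTR OE. Gata3 (0.182 against 0.286) and Elf5 (0.0532 against 0.0772) were lower as well. Cdx2 (0.154 against 0.149) and Eomes (1.34 against 1.26) went the other way. Summed fibroblast markers were also lower in CTR KD, at 0.570 to 0.909 against 1.20 to 1.60. The part of these markers in the result was not tested.

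To compare levels between genes, CPM were divided by effective length in kilobases. Amotl2 was the most abundant of the 5 in every group, at 17.9 ± 1.48 CPM per kilobase in CTR KD, 10.7 ± 0.195 in YAP KD, 20.0 ± 0.383 in CTR OE and 25.5 ± 0.994 in YAP OE (SD, n = 3). Amot was the least abundant in every group, at 1.23 ± 0.0399, 1.25 ± 0.129, 1.39 ± 0.123 and 1.36 ± 0.0827 CPM per kilobase in the same order. The libraries of these 2 genes overlapped with those of no other member.

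The middle of the order differed between the groups. In CTR KD, Amotl1 (4.14 to 4.49 CPM per kilobase over libraries) was followed by Frmd6 (3.87 to 4.05) and Ptpn14 (3.14 to 3.76), without overlap. YAP KD kept this order, with Amotl1 at 4.40 to 4.70, Frmd6 at 3.09 to 3.27 and Ptpn14 at 2.50 to 2.74. In CTR OE, Ptpn14 (4.34 to 4.59) overlapped at its top with Amotl1 (4.59 to 4.67), and Frmd6 (3.73 to 3.999) was lower. In YAP OE, Ptpn14 (5.20 to 5.79) was above Amotl1 (4.55 to 5.08), which overlapped with Frmd6 (4.27 to 4.77). Ptpn14 thus ranked below Frmd6 in both groups of the knockdown and above it in both groups of the overexpression.

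The composition of the angiomotin family, read per kilobase, differed between the groups. Amotl2 made up 76.3% ± 1.39 of the summed CPM per kilobase of the 3 genes in CTR KD and 65.0% ± 1.12 in YAP KD, and 76.9% ± 0.733 in CTR OE and 80.5% ± 0.263 in YAP OE (SD, n = 3). The share of Amotl1 was 18.4% ± 1.23 in CTR KD, 27.5% ± 0.573 in YAP KD, 17.8% ± 0.225 in CTR OE and 15.2% ± 0.265 in YAP OE. Amot made up the rest, between 4.05% and 8.47% over all libraries.

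**Figure D3:**
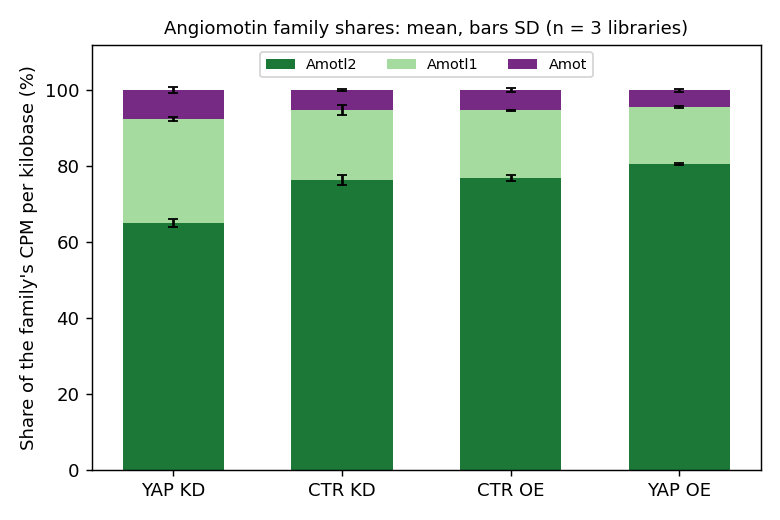
Share of each angiomotin gene in the summed CPM per kilobase of Amotl2, Amotl1 and Amot (vertical axis, %) in the 4 groups. Stacked bars give means and error bars the SD of the segment they end (n = 3 libraries). The Amotl2 segment is 65.0% in YAP KD and 80.5% in YAP OE, with both controls between them at 76.3% and 76.9%.

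The ratio of 2 genes within a library does not depend on library scaling. The log2 CPM ratio of Amotl2 to Amotl1 was 0.93 ± 0.122 in CTR KD and 0.11 ± 0.0527 in YAP KD, a difference of -0.81 without overlap. In the overexpression it was 0.98 ± 0.0313 in CTR OE and 1.28 ± 0.0239 in YAP OE, a difference of 0.30 without overlap. Exact permutation tests (two-sided) gave p = 0.1 for both, the smallest that 3 against 3 libraries allow, so these ratios could not have passed a threshold of 0.05. The ratio of Amotl2 to Amot differed by -0.75 in YAP KD and by 0.35 in YAP OE, again without overlap (exact permutation p = 0.1 each).
The ratio of Amotl1 to Amot overlapped between the groups of each experiment. It differed by 0.058 in YAP KD (exact permutation p = 0.7) and by 0.056 in YAP OE (exact permutation p = 0.5). Adjusted over the 6 ratios tested, the exact permutation p-values were 0.15 for the 4 ratios with Amotl2, and 0.7 and 0.6 for these. Without single libraries the Amotl1 to Amot difference ranged from 0.0059 to 0.13 in YAP KD, and in YAP OE it turned to -0.0079 without CTR OE replicate 2.

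The proteins that the members bind or work with at junctions were read as a list of 22 genes, and enzymes that modify or degrade angiomotins as a list of 10. Of the junctional partners, 4 fell in YAP KD, against 2.78% of all genes, and 1 rose, against 2.71%. Inadl, which encodes the Crumbs-complex scaffold PATJ, a binding partner of angiomotin, had a log2 fold change of -0.76 (SE 0.0638, adjusted p = 0.000221), close to that of Amotl2. Its level was 21.2 ± 1.51 CPM in CTR KD and 12.5 ± 0.352 in YAP KD (SD, n = 3). Wwc2, a relative of the Hippo scaffold KIBRA, had a log2 fold change of -0.46 (adjusted p = 0.00587), with 48.2 ± 4.27 CPM in CTR KD and 35.1 ± 2.03 in YAP KD. These 2 genes were the partners that also rose in YAP OE.

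The other two that fell were Crb3, the membrane-spanning subunit of the Crumbs complex (-0.44, adjusted p = 0.00681), and Ajuba, a LIM protein that restrains the LATS kinases (-0.44, adjusted p = 0.00229). Prkci, the atypical protein kinase C of the apical polarity complex, rose by 0.36 on the log2 scale (adjusted p = 0.00122). It averaged 190.1 ± 5.10 CPM in CTR KD and 243.3 ± 3.28 in YAP KD. In YAP OE the log2 fold changes of these 3 were -0.023 for Crb3, 0.063 for Ajuba and -0.0045 for Prkci, none of them called. For each of the 3 the difference between the experiments was itself called (adjusted p = 0.0228, 0.000226 and 0.000306). The controls were not alike for Ajuba, at 134.7 ± 8.37 CPM in CTR KD and 166.5 ± 1.48 in CTR OE. This log2 difference of 0.30 was called (edgeR adjusted p = 0.0044).

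In YAP OE, 2 of the 22 junctional partners rose, against 1.66% of all genes, and none fell, against 0.473%. Inadl had a log2 fold change of 0.27 (SE 0.0466, adjusted p = 0.00544), from 22.8 ± 0.563 CPM in CTR OE to 27.5 ± 0.953 in YAP OE. Wwc2 had 0.23 (SE 0.0464, adjusted p = 0.0160), a call lost without CTR OE replicate 2 (adjusted p = 0.0890), without CTR OE replicate 3 (adjusted p = 0.0761) and in 1 fit over all 12 libraries (adjusted p = 0.0891). The median log2 fold change of the list was -0.070 in YAP KD and 0.015 in YAP OE. Nf2, Tjp1, Scrib, Dlg1 and Cdh1, which encode Merlin, a zonula occludens scaffold, basolateral polarity scaffolds and E-cadherin, were called in neither experiment.

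Of the 10 angiomotin modifiers none was called in YAP KD by edgeR, nor by DESeq2 or limma-voom, with 2 at an unadjusted p under 0.05 in edgeR. At 2.78% of all genes lower and 2.71% higher, 0 of 10 is near the background. In YAP OE 2 of the 10 rose, against 1.66% of all genes. Lats2, the kinase that phosphorylates both YAP and angiomotins, had a log2 fold change of 0.43 in YAP OE (SE 0.0803, adjusted p = 0.00902) and of -0.26 in YAP KD (SE 0.111, adjusted p = 0.223), or -0.41 with effective length as an offset (adjusted p = 0.0837). It was at 5.59 ± 0.362 CPM in CTR OE and 7.53 ± 0.398 in YAP OE, and its call was lost without CTR OE replicate 3 (adjusted p = 0.0702). Nedd4l, a ubiquitin ligase that acts on angiomotins, had a log2 fold change of 0.37 in YAP OE (SE 0.0600, adjusted p = 0.00296) and of -0.19 in YAP KD (adjusted p = 0.175). The difference between the experiments was itself called for these 2 of 10 modifiers, against 8.80% of all genes. On the log2 scale it was 0.70 for Lats2 (edgeR adjusted p = 0.00422) and 0.57 for Nedd4l (edgeR adjusted p = 0.00231). The median of the list was -0.041 in YAP KD and 0.053 in YAP OE. No modifier fell past the threshold in YAP OE, and Lats1, Nedd4, Itch, Tnks, Tnks2, Rnf146, Usp9x and Arhgap17 were called in neither experiment.

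**Figure D4:**
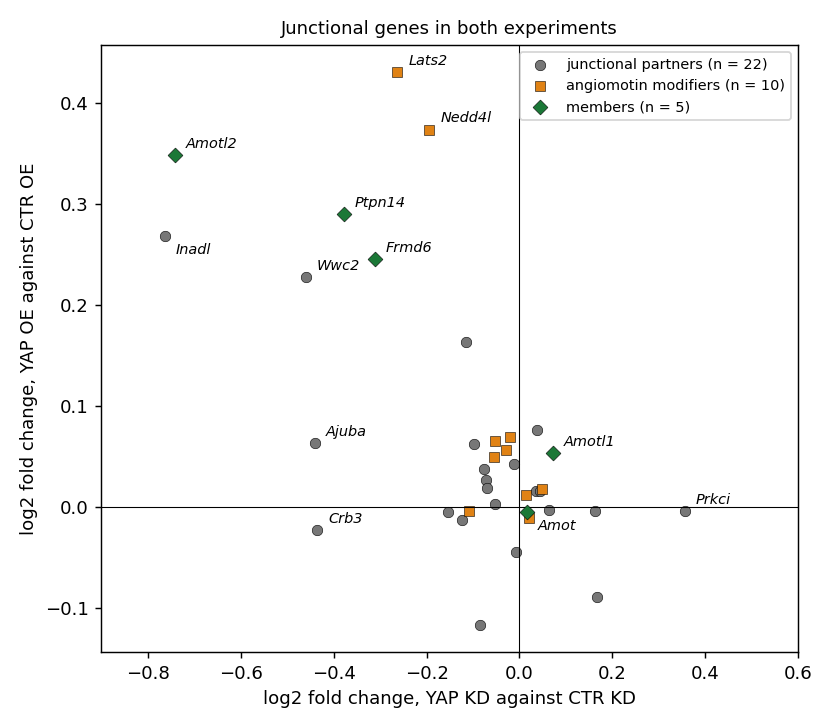
Log2 fold change in YAP KD (horizontal axis) against that in YAP OE (vertical axis) for the 5 members, 22 junctional partners and 10 angiomotin modifiers, each point a gene. Genes called in either experiment and all members are named. Amotl2 and Inadl lie farthest to the left at -0.74 and -0.76, and Prkci lies farthest to the right at 0.36. Ptpn14, Frmd6, Wwc2, Ajuba, Lats2 and Nedd4l share the quadrant of Amotl2 and Inadl (lower in YAP KD, higher in YAP OE). Some genes without a name in the figure lie there too.

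Finally, the genes with the most similar pattern were sought among 9914 genes, by Pearson's r of log2 CPM over the 12 libraries after each gene was centred on the mean of its experiment. The libraries of YAP KD and YAP OE stand apart from their controls for 3 members, so these r values rest mainly on the difference between groups, and they are a description only. Nearest to Amotl2 were Inadl (r = 0.984), Bcam (r = 0.984), which encodes a laminin receptor, and Tm7sf3 (r = 0.980). Nearest to Ptpn14 were Fam43a (r = 0.985), Ppm1h (r = 0.978) and Sept8 (r = 0.974), and nearest to Frmd6 were Egfr (r = 0.956), Dstyk (r = 0.954) and Nmnat2 (r = 0.952). All of these neighbours of Amotl2, Ptpn14 and Frmd6 were called lower in YAP KD, against 2.78% of all genes. They were chosen by their pattern over these same libraries, so their calls are no separate support. In YAP OE, Tm7sf3, Ppm1h, Egfr and Dstyk were not called (edgeR adjusted p = 0.152, 0.105, 0.0629 and 0.215). The nearest gene to Amot was Ascc2 (r = 0.841), which was called in neither experiment. Bcam had log2 fold changes of -0.74 in YAP KD and 0.27 in YAP OE, beside -0.74 and 0.35 for Amotl2.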

How the data were processed

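RNA-Seq of 12 libraries (4 groups of 3, from independent experiments per the labels) was analysed. Per the labels and the study's methods, the authors aligned reads with STAR to mm10, assigned them to RefSeq genes with RSEM and deposited expected counts, which are estimated and not normalized, with mean transcript and effective lengths in bases. Tool versions and strand are not given in the sources used here. RSEM divides reads shared between genes, but the expected counts of all 5 members were whole numbers in every library. The deposited TPM and FPKM were not used.

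Expected counts were rounded. Each experiment was fitted on its 6 libraries with edgeR 4.0.16 (R 4.3.3: filterByExpr, TMM, quasi-likelihood F test, two-sided, Benjamini-Hochberg adjustment over all genes kept, 14606 in the knockdown and 14804 in the overexpression). A fit over 12 libraries gave the difference and sum of effects and the comparison of controls (15049 genes). The SE was the absolute log2 fold change divided by the square root of F. CPM are TMM-scaled. Log2 transcript lengths were tested with limma 3.58.1 where all 6 libraries had at least 10 expected counts, and ratios by exact permutation with scipy 1.17.1. All replicate pairs differed by more than sampling noise and were counted separately. The scripts were tested on simulated data. Genes named are the members, Yap1, genes of the junctional lists and of the marker lists, and the 3 genes nearest to each member in pattern with a mean of at least 5 CPM. Some of these genes are not reported here. Members and lists were chosen with earlier results of these data known. Alternatives were other scaling factors, filters, DESeq2 1.42.0, limma-voom, a length offset, the replicate number as a block, 1 fit over all libraries and each library left out.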

Additional observations from a re-analysis of the deposited data

Results flagged for a closer look

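A total of 3 members had effects of YAP that differed between the knockdown and the overexpression by the test of the difference itself, which is the size of opposite movements under opposite manipulations. On the log2 scale, the effect in YAP OE minus that in YAP KD was 1.09 for Amotl2, 0.67 for Ptpn14 and 0.56 for Frmd6. Groups of 3 libraries are too small to look for single libraries far from the others.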

How the results depend on the processing

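The calls on Amotl2 in YAP KD and YAP OE, on Ptpn14 in YAP OE and on the difference between the experiments for Amotl2, Ptpn14 and Frmd6 held under every alternative run. Replicate numbers did not pair the libraries: same-numbered libraries correlated in their deviations from group means by -0.29, -0.14 and -0.0082 in the knockdown and by 0.018, 0.047 and 0.024 in the overexpression. With the replicate block, 1 of 5 members was called in YAP KD (193 genes in all, against 802), Ptpn14 had -0.37 (adjusted p = 0.0849) and Frmd6 -0.31 (adjusted p = 0.0714). The sum of effects was then called for 0 members by edgeR (Amotl2 -0.39, unadjusted p = 0.00066, adjusted p = 0.0814), and no other call on a member changed. The sum for Amot turned to -0.013 with a length offset. A single fit over 12 libraries called 1261 genes in YAP KD, and no filter beyond 1 count called 556 in YAP OE, against 316.

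Without single libraries, 1 to 3 members were called in YAP KD and 1 to 2 between controls, 2 to 4 genes of both lists in YAP OE, and 298 to 1019 genes in YAP KD and 154 to 327 in YAP OE. Log2 fold changes ranged from -0.44 to -0.30 for Ptpn14 and from -0.34 to -0.29 for Frmd6 in YAP KD, and from 0.21 to 0.29 for Frmd6 in YAP OE. For Amot they ranged from -0.055 to 0.085 in YAP KD and from -0.057 to 0.057 in YAP OE, its difference between experiments from -0.094 to 0.051 and its sum from -0.065 to 0.081. The difference for Amotl1 ranged from -0.063 to 0.021, and the ratio of Amotl1 to Amot in YAP OE from -0.0079 to 0.13. The causes were not tested. With 3 libraries a group, and 351 to 494 counts of Amot in each, changes smaller than the intervals given were not detectable.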
